A study of Bombyx mori with 12 samples.

Results

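GSTD3 (gene BGIBMGA002211, described in the deposited table as glutathione S-transferase 3) is 1 of the 15745 genes listed for ovaries of the silkworm Bombyx mori, and 1 of 6 whose description names a glutathione S-transferase. It was taken for the difference between the silkworm lines that earlier results of these data had shown, so its levels in the lines are given as a description, without a test. The study compared the line given as TBH with the line given as WT at the pupal stages P4 and P2, and the 4 groups, TBH at P4, WT at P4, TBH at P2 and WT at P2, had 3 samples each. The labels do not spell out TBH and name no allele, strain, construct or treatment for either line, while the title of the series names damage to female reproduction by hyperproteinemia, an excess of protein in the hemolymph. Ovaries of 5 female pupae with n = 3 are stated, and the labels do not say whether a sample pools animals, so p-values measure only the spread between these samples, which may be partly technical.

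Glutathione S-transferases join the tripeptide glutathione to electrophilic compounds, among them plant toxins, insecticides and products of lipid peroxidation, and so make them soluble and easier to export. Insects carry several cytosolic classes, of which delta and epsilon are best known for the detoxification of foreign compounds, sigma for products of lipid peroxidation, and omega for reactions that use a cysteine in the active site. In insects these enzymes are studied mostly in the fat body and the midgut, and an ovary sample holds follicle cells, nurse cells, oocytes and the ovarian sheath together. In such bulk samples, more transcript per cell and more cells that carry the transcript cannot be told apart.

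The deposited values are normalized expression values whose unit is not named, so a gene's level is compared between samples, and levels of different genes are set side by side only to choose or order genes. TBH P4 replicate 3 and WT P2 replicate 2 differed from the rest of their groups in earlier results of these data. GSTD3 stood far higher in TBH than in WT ovaries at both stages. At P4 its values were 140, 133 and 168 in the TBH samples, against 7.59, 3.88 and 1.79 in the WT samples. At P2 they were 101, 106 and 109 in TBH, against 11.9, 15.8 and 10.2 in WT. All 6 TBH samples lay above all 6 WT samples, and no sample of either line came near those of the other. The group means were 147 ± 18.9 in TBH and 4.42 ± 2.94 in WT at P4 (SD, n = 3 each), a 33.2-fold ratio that ran from 25.6 to 51.8 without any 1 library and was 51.8 without WT P4 replicate 1. They were 105 ± 3.82 in TBH and 12.6 ± 2.91 in WT at P2, an 8.34-fold ratio (7.59 to 9.55 without any 1 library).

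**Figure D1:**
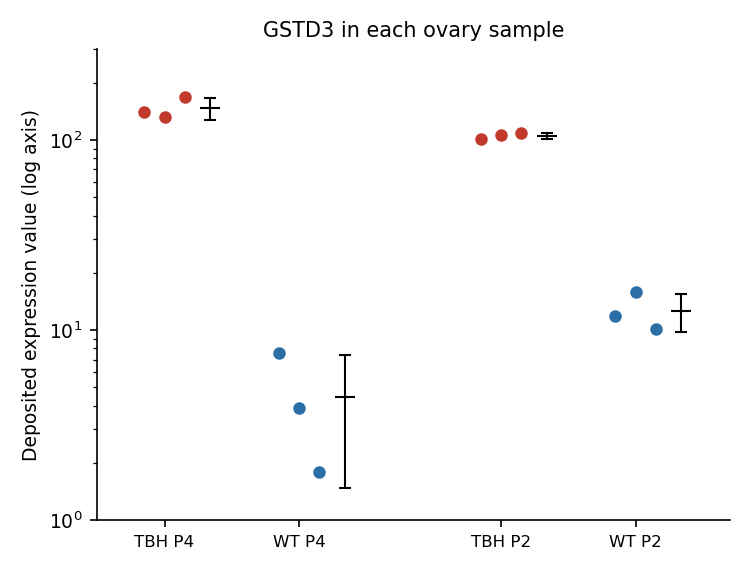
Expression value of GSTD3 in each ovary sample (points, 3 per group; vertical axis logarithmic, unit not named by the authors), with the group mean and SD beside them. TBH samples (red) lie between 101 and 168 and WT samples (blue) between 1.79 and 15.8.

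On the scale of log2(value + 1), TBH stood above WT by 4.91 at P4 and by 2.98 at P2, and by 4.81 and 3.15 without TBH P4 replicate 3 and WT P2 replicate 2. Among the 5235 genes that reached a value of 1 in 3 or more samples, GSTD3 had the 6th highest difference at P4 and the 25th highest at P2. These ranks describe how the gene came to be chosen. TBH samples lay above all WT samples in 14.0% of the 5235 genes at P4, in 4.76% at P2, and at both stages in 116 genes (2.22%). A difference over 2 log2 units in favour of TBH at both stages was shared by 30 genes (0.573%), of which 5 have a name or description: GSTD3, a beta-hexosaminidase (BGIBMGA004194), which removes terminal hexosamines from glycans, and 3 genes described as cecropin B, a secreted antibacterial peptide.

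Pooled over the groups, the spread of GSTD3 among replicates was near that of genes with a like mean over all 12 samples. That mean lies between the levels of the 2 lines, so the spread at the level of either line is not compared. Its SD within groups was 0.44 on the log2 scale, against a median of 0.47 in the 481 genes whose mean log2 level was within 0.5 of its own. The 3 TBH samples at P2 were the tightest group, with a coefficient of variation of 3.63%, followed by TBH at P4 (12.9%), WT at P2 (23.1%) and WT at P4 (66.5%). In WT at P4, where the level was lowest, replicate 1 stood highest at 7.59 and replicate 3 lowest at 1.79.

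Between the stages, the values of GSTD3 were lower at P4 in WT, with a call near the threshold. Its change in TBH did not pass the test. In TBH, all 3 samples at P4 (133 to 168) lay above all 3 at P2 (101 to 109), with a ratio of the means of 1.39, an order of samples found in 4.64% of all genes. In WT, all 3 samples at P4 (1.79 to 7.59) lay below all 3 at P2 (10.2 to 15.8), with a ratio of 0.35 (0.224 without WT P4 replicate 1), an order found in 21.5%. Both together were found in 5 genes (0.0955%). The choice of a gene with a large line difference at P4 favours this order, so the share is a description. In a limma fit across all 5235 genes with Benjamini-Hochberg adjustment, the log2 difference of P4 minus P2 was 0.47 ± 0.36 in TBH (SE, 95% interval -0.31 to 1.25, adjusted p = 0.684) and -1.46 ± 0.36 in WT (-2.24 to -0.68, adjusted p = 0.045). Called in these comparisons were 1.7% of all genes in TBH and 4.11% in WT. The stage comparisons reuse the group values of the line differences on which GSTD3 was chosen. Its p-values between the stages are therefore not free of that choice. All genes shifted between the stages by a median of -0.21 in TBH and -0.42 in WT, and relative to these medians GSTD3 differed by 0.68 in TBH and by -1.03 in WT.

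The WT call lay near the threshold and ended under 15 of 21 alternatives, among them quantile normalization (log2 difference -0.94, adjusted p = 0.271), the fit on WT samples alone (adjusted p = 0.205), and the fits without WT P4 replicate 3 (-1.05, adjusted p = 0.133) or replicate 2 (adjusted p = 0.129), without WT P2 replicate 1 (adjusted p = 0.101) or replicate 2 (-1.29, adjusted p = 0.060), and without TBH P2 replicate 1, 2 or 3 or TBH P4 replicate 1 or 2 (adjusted p of 0.063 to 0.074). Over the alternatives the adjusted p ran from 0.008 to 0.271, and the difference was below 0 in all 21. From high to low, the group means therefore ran TBH at P4, TBH at P2, WT at P2 and WT at P4, where the first pair did not differ in the test and the last pair only under some settings. Whether the change between the stages differed between the lines was not tested, since the gene was chosen on its line differences at the 2 stages.

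**Figure D2:**
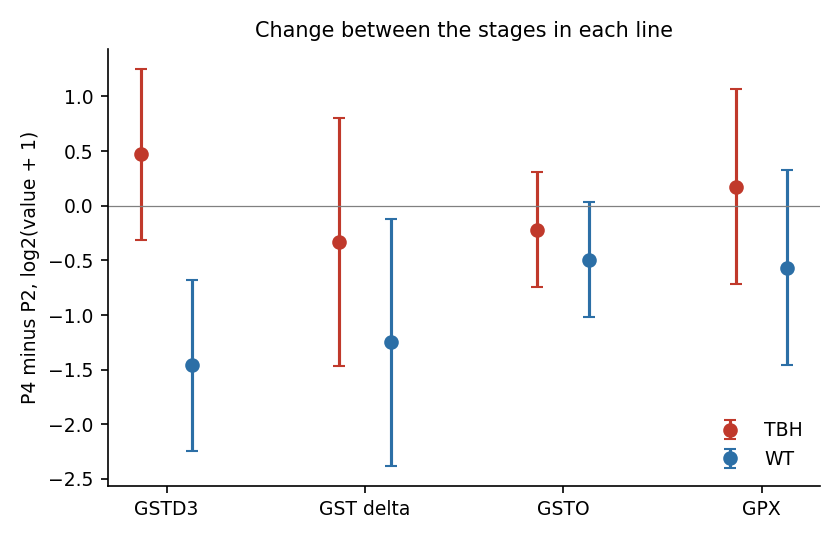
Difference of P4 minus P2 in log2(value + 1) for GSTD3, the delta-class gene BGIBMGA002222, the omega-class gene GSTO and the glutathione peroxidase GPX, in TBH (red) and WT (blue), as limma estimates with 95% intervals from 12 samples. GSTD3 lies at 0.47 in TBH and -1.46 in WT; of the 8 intervals, those of GSTD3 and of the delta-class gene in WT do not include 0.

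Of the 5 other genes described as glutathione S-transferases, 2 passed the filter on low values. They were the delta-class gene BGIBMGA002222, without a gene name, and GSTO (BGIBMGA011658), of the omega class. In limma neither passed for TBH against WT at P4 or at P2, where 1.93% and 1.49% of all tested genes were called, and 0 of the 2 had an unadjusted p under 0.05, as 11.7% and 7.05% of all tested genes did.

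The delta-class gene BGIBMGA002222 belongs to the class of GSTD3. At P4 its values were 55.2, 27.2 and 80.0 in TBH, against 29.4, 33.8 and 12.2 in WT. At P2 they were 56.4, 75.3 and 57.8 in TBH, against 90.7, 27.7 and 70.3 in WT. The groups overlapped at both stages, and WT spread more widely at P2 than TBH. The log2 difference of TBH minus WT was 1.07 ± 0.52 at P4 (SE, 95% interval -0.06 to 2.20, limma adjusted p = 0.478) and 0.15 ± 0.52 at P2 (-0.98 to 1.28, adjusted p = 1.0). Leaving out libraries moved the P4 difference between 0.63 (without WT P4 replicate 3) and 1.49 (without TBH P4 replicate 2), and turned the P2 difference to -0.35 without WT P2 replicate 2. The upper ends of these intervals, 2.20 and 1.28, lie below the differences of 4.91 and 2.98 for which GSTD3 was chosen. Because of that choice this is a description and no test between the 2 genes.

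The omega-class gene GSTO stood at 19.2, 28.1 and 29.5 in TBH at P4, against 21.5, 22.9 and 21.5 in WT. At P2 it stood at 34.5, 24.8 and 29.7 in TBH, against 32.6, 34.1 and 28.0 in WT. Its groups overlapped at both stages. The log2 difference of TBH minus WT was 0.19 ± 0.24 at P4 (95% interval -0.34 to 0.71, limma adjusted p = 0.865) and -0.09 ± 0.24 at P2 (-0.62 to 0.43, adjusted p = 1.0), and neither interval reached 1 log2 unit. These small differences changed sign under single alternatives, to -0.02 at P4 with quantile normalization and to 0.03 at P2 without TBH P2 replicate 2.

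The 3 genes below the filter were GSTD1 (BGIBMGA006537), another delta-class gene by its name, a sigma-class gene (BGIBMGA009107) and GSTO4 (BGIBMGA011820), an omega-class gene by its name. GSTD1 stood at 0.99, 0.84 and 0 in TBH at P4, against 0.44, 0 and 0 in WT, and at 0.12, 0.81 and 0.99 in TBH at P2, against 2.53, 0.62 and 0.14 in WT. GSTO4 stood at 0, 0.12 and 0.43 in TBH at P4 with 0 listed for each of the 3 WT samples, and its P2 values were 1.12, 0.67 and 0.35 in TBH, against 1.15, 0.51 and 0 in WT. Both genes stood near 0 in all 12 samples, and their lines overlapped at both stages.

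The sigma-class gene BGIBMGA009107 was listed at 38.2 in TBH P4 replicate 3, at 77.8 in WT P2 replicate 1, and at 0 in the other 10 samples. Whether an exact 0 stands for an absent transcript or for a failed estimate was not tested. Listed at 0 in all 12 samples were 4536 genes, and 432 genes had both a 0 and a value above 20 among their samples. WT P2 replicate 1 is also the sample with the most genes above 0, namely 7772 of 15745. TBH P4 replicate 3 came next with 7485, against 6626 and 6687 in the other samples of its group. GSTD3 itself had no 0 in any sample.

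**Figure D3:**
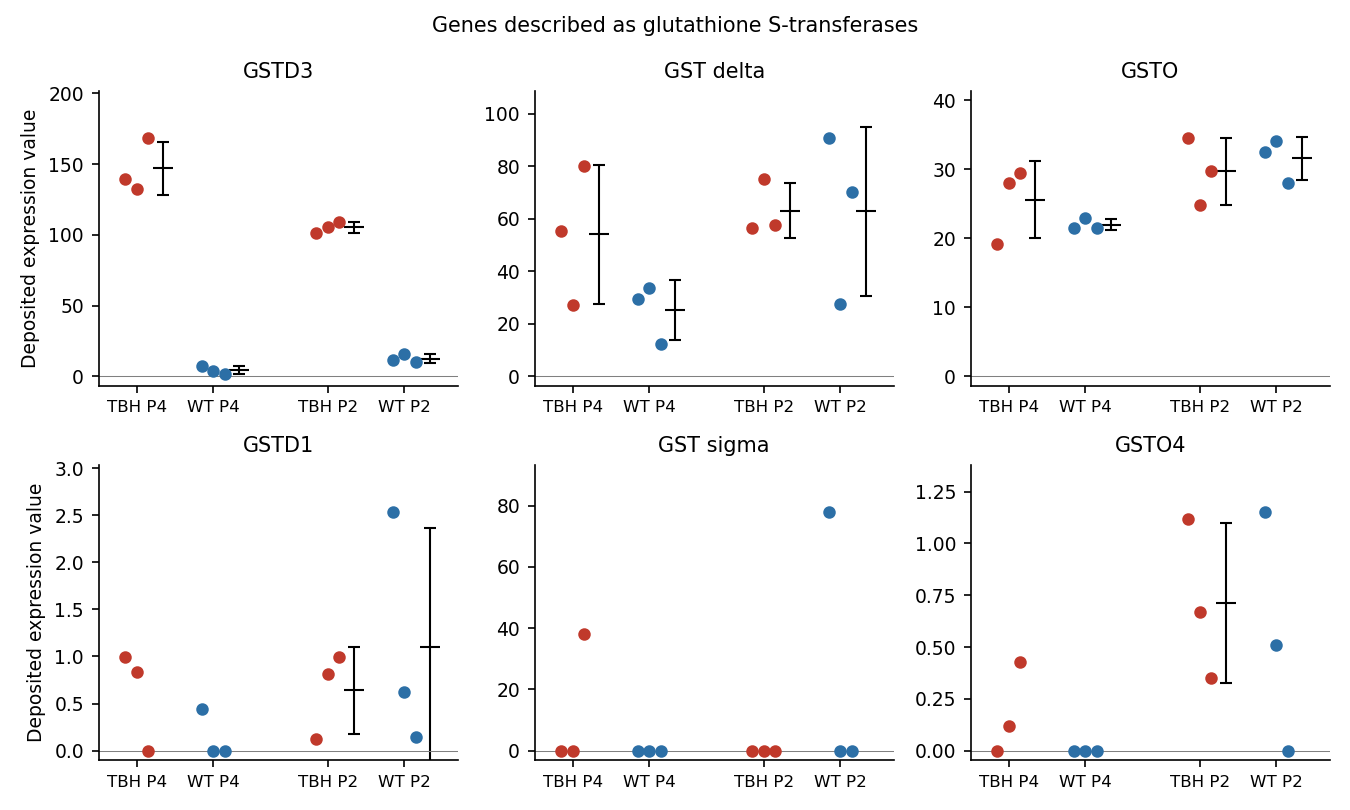
Expression values of the 6 genes described as glutathione S-transferases in each sample (points, TBH red and WT blue), each panel on its own linear axis, with the group mean and SD where no sample of the group was at 0. The lines separate without overlap at both stages for GSTD3, and the values of the delta-class gene and of GSTO overlap.

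Between the stages, neither of the other 2 tested transferases passed. The delta-class gene BGIBMGA002222 differed by -0.33 ± 0.52 in TBH (limma adjusted p = 0.872) and by -1.25 ± 0.52 in WT (adjusted p = 0.183, unadjusted 0.033), and GSTO by -0.22 ± 0.24 in TBH (adjusted p = 0.808) and -0.50 ± 0.24 in WT (adjusted p = 0.245). With quantile normalization both GSTO differences turned, to 0.10 in TBH and 0.12 in WT, and that of BGIBMGA002222 in TBH was 0.03, and 0.09 without TBH P4 replicate 2. The difference of the line effect between the stages was 0.92 ± 0.73 for the delta-class gene and 0.28 ± 0.34 for GSTO in the same fit (adjusted p = 1.0 for both), where 0.287% of all genes were called. Without WT P2 replicate 2 and TBH P4 replicate 3, the delta-class gene was called lower at P4 in WT (-1.75, adjusted p = 0.028).

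The descriptions limit what this comparison within the family covers. Only 2221 of the 15745 genes carry a description, while RefSeq lists 20 genes with a glutathione S-transferase symbol for the assembly ASM3026992v2, and 3 of these symbols (GSTd1, GSTd3 and GSTo4) occur as gene names here. None of the table's gene IDs matched that annotation (0 matched), so the other members could not be sought by position, and no coordinates are given. In RefSeq the GSTd3 gene overlaps its neighbour GSTd2, which has the synonym Gstdelta, in that assembly. If the delta-class row is that gene, which its description alone does not settle, reads from the shared stretch could count for either gene, and no strand setting of the counting was found in the sources.

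The glutathione and detoxification lists give the levels of related enzymes in the same samples. Of 35 genes found by name or description in lists of glutathione use, thioredoxins and peroxiredoxins, superoxide dismutases and catalase, cytochromes P450, glycosyltransferases, carboxylesterases, and aldehyde or epoxide enzymes, 18 passed the filter. In limma 0 of these 18 were called for TBH against WT at P4 (2 at an unadjusted p under 0.05) and 0 at P2 (0 unadjusted), beside 1.93% and 1.49% of all genes, shares at which 0 calls among 18 genes do not set the lists apart. Their median log2 difference of TBH minus WT was 0.13 at P4 and 0.04 at P2, against medians of 0.18 and -0.01 over all tested genes. No gene was found by the patterns for ABC transporters or for the regulators Cap n collar, Keap1 and Maf.

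Glutathione peroxidase GPX (BGIBMGA011438), which reduces hydroperoxides with glutathione, came closest among the 3 genes of glutathione use. It stood at 98.1, 115 and 168 in TBH at P4, against 54.4, 64.5 and 56.0 in WT, and at 121, 115 and 95.3 in TBH at P2, against 176, 84.3 and 43.3 in WT. TBH lay above WT without overlap at P4, as in 14.0% of all genes, while at P2 the WT samples spread to both sides of TBH. The log2 difference was 1.08 ± 0.41 at P4 (limma adjusted p = 0.284, unadjusted 0.022) and 0.34 ± 0.41 at P2 (adjusted p = 1.0). A glutaredoxin (BGIBMGA008525), which reduces disulfides with glutathione, averaged 44.4 ± 24.6 in TBH and 42.3 ± 8.40 in WT at P4, and 70.0 ± 20.4 in TBH and 87.5 ± 21.0 in WT at P2. The third, JHEH-LP3, carries the name of a juvenile hormone epoxide hydrolase and the description of a glutathione peroxidase, and averaged 3.29 ± 1.74 in TBH and 2.18 ± 0.412 in WT at P4, and 4.73 ± 1.98 in TBH and 6.73 ± 3.89 in WT at P2.

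Among the thioredoxins and peroxiredoxins, which reduce disulfides and peroxides without glutathione, none of 4 passed, but at P4 none of them overlapped between the lines. The thioredoxin BGIBMGA007904 averaged 94.7 ± 45.3 in TBH and 58.5 ± 5.5 in WT at P4, the mitochondrial thioredoxin 2 (BGIBMGA012029) 80.4 ± 7.92 in TBH and 52.0 ± 7.30 in WT, and the 1-Cys peroxiredoxin PRX 54.4 ± 9.34 in TBH and 40.6 ± 2.08 in WT (limma adjusted p = 0.631, 0.712 and 0.659 in this order). These 3 lay higher in TBH, the order of samples found in 14.0% of all genes, and JAFRAC1 lay lower, as 6.72% did. At P2 all 4 overlapped. JAFRAC1, a thiol peroxiredoxin, averaged 1009 ± 339 in TBH and 1471 ± 170 in WT at P4 (limma adjusted p = 0.616), and 906 ± 380 in TBH and 928 ± 179 in WT at P2 (1.0). A copper-zinc superoxide dismutase (BGIBMGA001307), which turns superoxide into peroxide, averaged 308 ± 47.6 in TBH and 271 ± 28.9 in WT at P4, and 313 ± 35.6 in TBH and 276 ± 87.5 in WT at P2. Catalase (CAT) averaged 30.6 ± 15.2 in TBH and 23.3 ± 2.63 in WT at P4, and 43.2 ± 2.76 in TBH and 41.6 ± 13.1 in WT at P2.

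Among enzymes of other detoxifying families, 4 of 10 cytochromes P450 passed the filter. The lowest line p among them was that of DIB (Cyp302a1), an ecdysteroid synthesis enzyme, at 3.90 ± 1.97 in TBH and 9.60 ± 2.49 in WT at P4 (log2 difference -1.16 ± 0.45, limma adjusted p = 0.299). The most abundant, CYP306A1, also an ecdysteroid synthesis enzyme, averaged 6.94 ± 1.43 in TBH and 7.30 ± 1.45 in WT at P4, and 11.6 ± 0.868 in TBH and 7.79 ± 0.657 in WT at P2. DIB lay lower in TBH without overlap at P4, as 6.72% of all genes did. CYP306A1 and CYP18A1 lay higher in TBH without overlap at P2, as 4.76% did. A mitochondrial aldehyde dehydrogenase (BGIBMGA010403), which oxidizes reactive aldehydes, averaged 900 ± 140 in TBH and 970 ± 48.8 in WT at P4, and 704 ± 78.3 in TBH and 764 ± 63.6 in WT at P2. Of the 2 tested carboxylesterases, which cleave ester bonds, the carboxylesterase ae27 (BGIBMGA001841) averaged 60.1 ± 16.1 in TBH and 56.0 ± 8.18 in WT at P4. AE13 averaged 1.32 ± 0.227 in TBH and 0.467 ± 0.125 in WT at P4, higher in TBH without overlap, as 14.0% of all genes were. The line difference of AE13 did not pass at either stage (limma adjusted p = 0.628 at P4 and 1.0 at P2). The 1 tested gene of the glycosyltransferase list is described as a UDP-glucose 6-dehydrogenase (BGIBMGA012188), which makes the sugar donor and transfers none, and stood at 1.27, 0 and 3.85 in TBH at P4, against 2.31, 2.69 and 0 in WT.

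**Figure D4:**
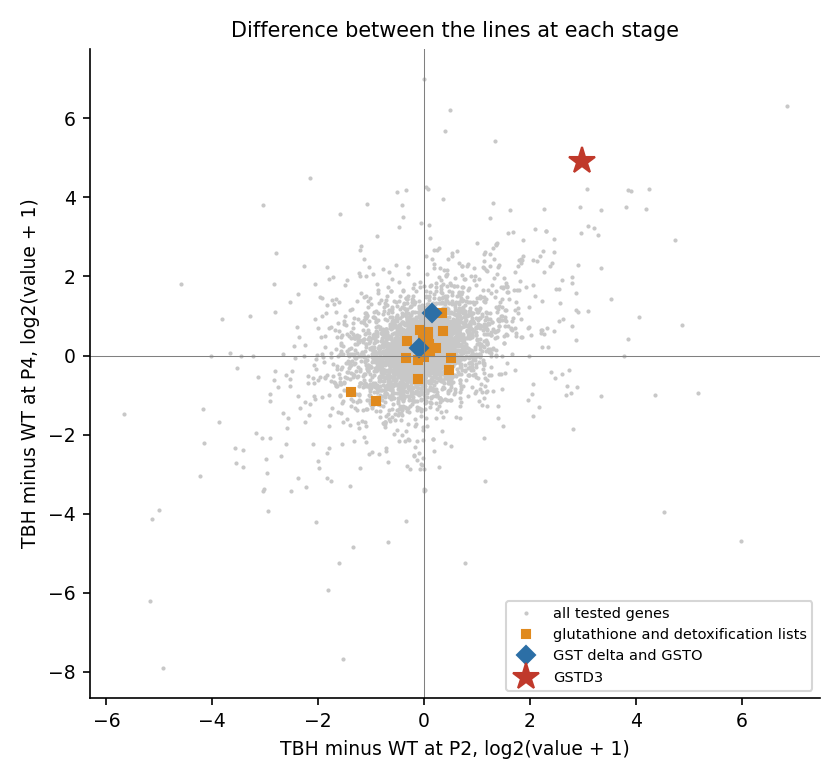
TBH minus WT difference in log2(value + 1) at P2 (horizontal) and P4 (vertical) for the 5235 tested genes (grey), the 18 tested genes of the glutathione and detoxification lists (orange squares), the 2 other tested transferases (blue diamonds) and GSTD3 (red star). GSTD3 lies at 2.98 and 4.91, and the orange and blue symbols lie within the cloud around 0.

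Between the stages, 1 of the 18 list genes was called in WT (7 at an unadjusted p under 0.05, as 22.4% of all genes) and 0 in TBH (3 unadjusted, as 10.8%). The gene called was AE13 (BGIBMGA012031), a carboxylesterase. It stood at 0.61, 0.41 and 0.38 in WT at P4, against 7.99, 5.18 and 5.11 at P2 (log2 difference -2.25 ± 0.39, limma adjusted p = 0.006). In TBH it stood at 1.06, 1.40 and 1.49 at P4, against 9.77, 3.59 and 4.81 at P2 (-1.51 ± 0.39, adjusted p = 0.092). In WT the stages did not overlap, an order found in 21.5% of all genes. A difference between the lines in this change was not called (0.74 ± 0.55 log2 units, adjusted p = 1.0).

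The genes with the pattern most like that of GSTD3 were ranked by Pearson's r of log2(value + 1) over the 12 samples. Since the samples of the lines form separate clusters for GSTD3, any gene with a steady line difference gets a high r, and r is given as a description. The 5 most alike of all genes had an r of 0.946 to 0.955, and the table gives none of them a name or description. Of the 5235 tested genes, 641 have a name or description. The first, BGIBMGA010500, stood at 23.3, 21.0 and 21.4 in TBH at P4, against 0, 0.91 and 0 in WT, and at 16.2, 21.9 and 17.3 in TBH at P2, against 1.66, 0.39 and 2.24 in WT. The others were BGIBMGA012548, BGIBMGA000884, BGIBMGA009167 and BGIBMGA000842, of which BGIBMGA000884 was the most abundant, at 460 ± 68.9 in TBH and 134 ± 6.53 in WT at P4, and 479 ± 17.5 in TBH and 166 ± 57.2 in WT at P2. BGIBMGA012548 had low values, at 2.54 ± 0.09 in TBH and 0.127 ± 0.106 in WT at P4. In all 5 genes every TBH sample lay above every WT sample, which the ranking by r favours. Over all 5235 genes, TBH lay above WT without overlap at both stages in 116 (2.22%).

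Among genes with a name or description, the beta-hexosaminidase BGIBMGA004194 was most alike (r of 0.935, 13th of all). It stood at 31.7, 33.0 and 44.5 in TBH at P4, against 0.59, 1.23 and 1.31 in WT, and at 23.1, 26.1 and 23.9 in TBH at P2, against 1.10, 0.97 and 0.33 in WT. Next came the cecropin B gene BGIBMGA000037 (0.867), the cuticle protein gene BMORCPR23 (0.853), a phosphoribosylaminoimidazole carboxylase (BGIBMGA007935, 0.812), an enzyme of purine synthesis, and HMGA (0.776), a chromatin protein that binds AT-rich DNA. Of these, BMORCPR23, the carboxylase and HMGA overlapped between the lines at P2 and did not pass there. BMORCPR23 stood at 14.9, 16.6 and 23.3 in TBH at P2, against 5.77, 8.23 and 16.0 in WT (limma adjusted p = 0.534). The carboxylase averaged 332 ± 39.2 in TBH and 316 ± 22.3 in WT (1.0), and HMGA 1056 ± 177 in TBH and 823 ± 326 in WT (1.0). The delta-class transferase had an r of 0.53 with GSTD3 (509th of 5234 genes), GSTO 0.25 (1775th) and GPX 0.66 (211th).

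**Figure D5:**
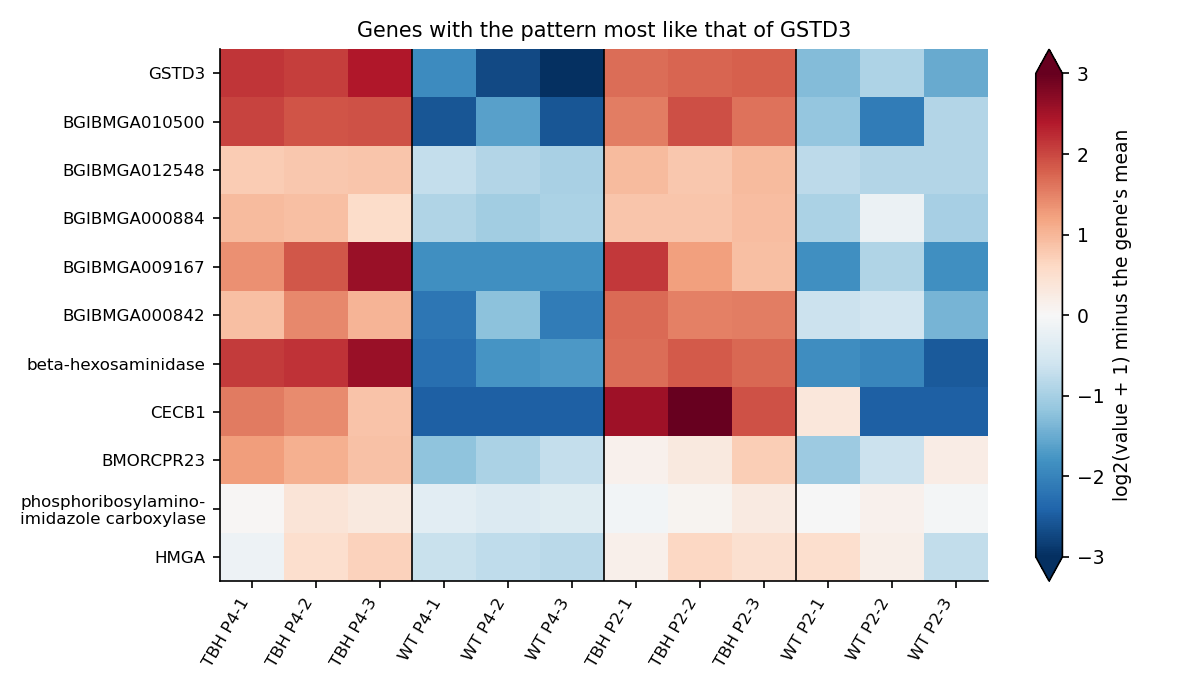
Expression of GSTD3 and of the 10 genes most like it (5 of all genes, then 5 with a name or description) in each of the 12 samples, as log2(value + 1) minus the mean of the gene; red is above and blue below that mean, and colours stop at 3 units. GSTD3 and the 6 rows under it are red in all TBH samples and pale or blue in all WT samples, and the lowest rows differ little between the lines at P2.

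Markers of the ovary and of tissues that can adhere to it were measured beside GSTD3. The eggshell gene VMP23 (BGIBMGA006755) averaged 449 ± 51.8 in TBH and 784 ± 371 in WT at P4, and 4.87 ± 1.69 in TBH and 10.7 ± 2.34 in WT at P2, while NANOS-O was listed at 0 in all samples. The line difference of VMP23 did not pass at P4 (limma adjusted p = 0.433) or at P2 (0.312). The next most abundant ovary gene, the chorion b-ZIP factor CBZ, went the other way at P4, at 10.4 ± 6.44 in TBH and 1.09 ± 1.43 in WT. It did not pass there (limma adjusted p = 0.274), and its P2 means were 8.01 ± 3.84 in TBH and 8.79 ± 8.05 in WT. C/EBP, next in abundance, averaged 0.757 ± 1.31 in TBH and 3.34 ± 2.23 in WT at P4. The 20 fat body and hemolymph genes summed to 129.9 to 247.6 in TBH and 98.4 to 167.4 in WT at P4, and to 152.3 to 313.1 in TBH and 285.0 to 339.6 in WT at P2, with none at 0 throughout. The most abundant of them, the 30 kDa protein gene BGIBMGA004454, made up most of these sums at P4. The other 19, summed after the values were seen, came to 12.1 to 14.3 in TBH and 8.6 to 18.8 in WT at P4, and to 67.7 to 88.1 in TBH and 107.2 to 229.7 in WT at P2, where all TBH samples lay below all WT samples. The share of all genes with that order at P2 is not given here. In limma 0 of 14 tested genes were called at P4, beside 1.93% of all genes, and 4 of 14 at P2, beside 1.49%. Lower in TBH at P2 were VG, the precursor of the yolk protein vitellin, at 4.21 ± 1.18 in TBH and 62.9 ± 30.5 in WT (log2 difference -3.54, adjusted p = 0.007), and SP1, a storage protein (-2.45, adjusted p = 0.020). Higher were the 30K protein genes BGIBMGA008164 (2.26, adjusted p = 0.009) and BGIBMGA010876 (2.54, adjusted p = 0.037).

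Sums of other lists separated the lines at 1 stage. They are given as values, without a test, and shares are at hand for single genes only. TBH lay below WT without overlap at P4 in 6.72% of all genes, and above WT at P2 in 4.76%. The 8 midgut and Malpighian tubule genes, of which aminopeptidase N-8 was at 0 throughout, summed to 50.6 to 64.3 in TBH and 28.6 to 42.3 in WT at P2, and overlapped at P4 (39.1 to 70.8 in TBH and 48.0 to 53.6 in WT). At P4, TBH was lower than WT without overlap in the sums of the 4 muscle genes (720.2 to 1199.7 in TBH and 1472.9 to 2074.2 in WT, tropomyosin-1 at 0 throughout), of the 3 hemocyte genes (21.4 to 25.2 in TBH and 40.2 to 44.6 in WT, hemocytin at 0 throughout) and of the 7 ovary genes (408.1 to 509.5 in TBH and 540.0 to 1212.1 in WT). At P2 these 3 sums overlapped, at 457.0 to 615.2, 44.6 to 65.0 and 9.79 to 16.0 in TBH, against 350.1 to 726.5, 23.2 to 54.9 and 13.6 to 31.2 in WT. The 178 cuticle and trachea genes and the 4 silk gland genes overlapped at both stages. Most of the hemocyte and midgut sums, and of the ovary sums at P4, came from 1 gene each. Averaged over all 12 samples, the hemocyte gene PRO-PO2 stood at 38.7, and PPO1, the next, at 0.0217. VMP23 stood at 312.1 and CBZ at 7.07, and the alkaline phosphatases BMO.9806 and ALP-M at 47.1 and 2.14. The muscle sums came mostly from A1 (584.6) and MLC-2 (345.1). In limma, at P4, where 1.93% of all genes were called, 1 of 2 tested midgut genes was lower in TBH, the alkaline phosphatase ALP-M (log2 difference -2.79, adjusted p = 0.00083), and of 48 tested cuticle genes 2 were higher and 2 lower. The part of these tissues in the level of GSTD3 was not tested.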

How the data were processed

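Per the labels' protocols, ovary RNA was sequenced on an Illumina NovaSeq. The deposited table gives each gene a normalized signal in a unit that it does not name, with sums of 468558.9 to 664133.6 per sample. Read depth is therefore unknown, and intervals for counting error are left out. Cufflinks and DESeq2 are named, without role or version, in the submitters' processing notes; no source used here gives the aligner, counting, genome build or annotation. The 4 deposited columns of group means equalled the means of their samples and were not used.

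Values were taken as log2(value + 1), without scaling, for the 5235 genes that reached 1 in 3 or more samples. The pseudocount makes changes of low values look smaller. The 4 group means were estimated from all 12 samples in limma 3.58.1 in R 4.3.3 (eBayes with trend), p-values were adjusted after Benjamini and Hochberg over all tested genes, and the threshold was 0.05. The fit was checked on simulated data with known changes. Errors of values are SDs of 3 samples, and errors of log2 differences are standard errors of the model. The fold given is the ratio of group means.

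GSTD3, the gene lists and the rules for naming genes were chosen with earlier results of these data known, and some list patterns were corrected after the table's descriptions were seen. Named are all described transferases, the 5 genes most correlated with GSTD3 of all genes and of those with a name or description, and from each list the members called between the lines or else its most abundant or, chosen after their values were seen, those with the smallest p. Same-numbered samples of different groups did not deviate together (correlations of -0.18 to 0.24, over 0.1 in 1 of 18 pairs), so the replicate number was not used as a block. Alternatives were another pseudocount (0.1), no filter or a mean of at least 10, quantile normalization, equal totals, no trend, only the 2 groups compared, the replicate block, and each of 12 libraries left out, or 2 together.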

Additional observations from a re-analysis of the deposited data

Results flagged for a closer look

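The estimates of GSTD3 between the stages had opposite signs in the 2 lines. Its log2 difference of P4 minus P2 was 0.47 in TBH, where all 3 samples at P4 lay above all 3 at P2, and -1.46 in WT, where all 3 samples at P4 lay below all 3 at P2. This difference between the lines was not tested, because the gene was chosen on its line differences at both stages, and in limma the change in TBH did not pass (adjusted p = 0.684) and that in WT passed (adjusted p = 0.045) but lost its call in 15 of 21 alternatives. The same order of samples was found in 5 of 5235 genes (0.0955%), GSTD3 included. The stage comparisons share their group values with the differences on which the gene was chosen. The order and its share are therefore a description and no stand-in for a test.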

How the results depend on the processing

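The line differences of GSTD3 kept their direction and moved by less than the spread between replicates under all 21 alternatives, from 4.51 to 5.32 log2 units at P4 (4.91 as reported) and from 2.85 to 3.15 at P2 (2.98). In TBH, the difference of P4 minus P2 stayed between 0.37 and 0.74 and was not called under any of the 21 (limma adjusted p of 0.303 to 0.969). In WT, the call of this difference ended in 15 of 21 alternatives. The difference was -1.69 with a pseudocount of 0.1 (adjusted p = 0.051), -0.94 with quantile normalization (0.271), and -1.46 without a filter (0.093), without trend (0.063), on the WT samples alone (0.205) and with the replicate block (0.083), whose numbers do not pair the samples. Leaving out 1 library gave -1.86 to -1.05 (adjusted p of 0.008 to 0.133), and the call ended in 9 of 12 such fits. The fit on WT alone and those without a library estimate the spread from fewer samples; otherwise the cause was not tested. Of the 2 other tested transferases, 0 were called under any alternative except 1, the delta-class gene between the stages in WT, which was called (1 gene) without WT P2 replicate 2 and TBH P4 replicate 3 together. The replicate block changed no other call of these genes. Of the 18 list genes, 0 were called between the lines at either stage with quantile normalization or without any 1 library. Over all genes, the counts called ran from 58 to 170 for TBH against WT at P4 (101 as reported), from 21 to 157 at P2 (78), from 55 to 154 for P4 against P2 in TBH (89) and from 72 to 1193 in WT (215). With 3 samples a group, standard errors of 0.52 log2 units for the delta-class gene and 0.24 for GSTO limit what could be called, and the read depth is unknown.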

Other observations

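Apart from GSTD3, the 4 genes with samples at P4 above P2 in TBH and below P2 in WT, without overlap, were BGIBMGA003964, BGIBMGA004243, BGIBMGA006037 and BGIBMGA011073. None has a name or description in the table, which 641 of the 5235 tested genes have. BGIBMGA003964 stood at 56.2, 49.8 and 46.1 in TBH at P4, with 0 listed for each of the 3 WT samples, and at P2 it stood at 15.3, 19.8 and 36.9 in TBH, against 8.52, 22.9 and 23.5 in WT. Its lines overlapped at P2, unlike those of GSTD3.

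RAB11 (BGIBMGA002209), a GTPase of vesicle recycling that most cells use, is the gene before GSTd3 in the RefSeq order of assembly ASM3026992v2. It was listed at 0 in all 12 samples. It was looked up after the values of GSTD3 were seen, as its only flanking gene with a name in the table.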
